A study of Mus musculus with 8 samples.

Results

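Ribosome biogenesis begins when RNA polymerase I (Pol I) transcribes the precursor of ribosomal RNA in the nucleolus. Small nucleolar ribonucleoproteins then modify the precursor, and a large set of assembly factors cuts and folds it into the small and large ribosomal subunits. In muscle this pathway sets how many ribosomes a fibre can use for protein synthesis, and it is known to respond to feeding, growth signals and disuse. The genes described here were picked by symbol, with earlier results of these data known, from families of nucleolar proteins (Nop, Nol, Utp, Rrp, Gnl), the Polr1 subunits of Pol I and a set of named factors. They numbered 52 of the 14860 genes that the arrays represented by at least 1 transcript cluster with a single symbol. Where a gene had several clusters, the one with the highest mean stood for it. The listed factors Fbl, Npm1, Dkc1, Wdr43 and Wdr75 were not analysed here.

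The series compared a fast leg muscle, the tibialis anterior, of male mice aged 8 weeks that had been fasted for 24 h with that of mice fed freely. The labels name no strain or genotype. Each exon array was hybridised with RNA pooled from 3 mice, and 4 experiments each gave 1 fasted and 1 fed pool, so that a value describes a pool and not a single animal. Levels are log2 values made by the authors with RMA, a method that corrects background, normalises arrays and summarises probes, and every difference is fasted minus fed on that scale. A level on these arrays has no true zero and is not compared between genes.

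Array medians lay between 5.76 and 5.91, and correlations between arrays across clusters were 0.957 to 0.98. The fasted pool of experiment 3 had the lowest mean correlation with the other arrays, 0.962, and the narrowest spread of values, with an interquartile range of 1.34 against 1.41 to 1.69 on the other arrays. The defining fibre genes Acta1, Ckm, Mylpf, Pvalb, Tnni2 and Tnnt3 averaged 11.59 to 11.94 on fasted arrays and 11.70 to 12.02 on fed arrays. Of 32 measured marker genes of fibres and of other cell types or states, 0 passed limma's test at an adjusted p of 0.05. At an unadjusted p under 0.05, 5 were higher (the endothelial Pecam1 and Cldn5, the fibroblast Pdgfra, the macrophage Cd68 and the proliferation marker Mki67, by 0.34, 0.44, 0.29, 0.27 and 0.25) and 2 were lower (the endothelial Kdr and the fibroblast Col1a1, at -0.48 and -0.39). These are 15.6% and 6.25% of the 32, beside 5.15% and 5.79% of all clusters. The mean level of the 5 endothelial markers was 6.75, 6.95, 6.65 and 7.24 on the fasted arrays of experiments 1 to 4. On the fed arrays it was 6.59, 6.75, 6.88 and 7.02, so that the fasted pool was higher in experiments 1, 2 and 4 and lower in experiment 3. The mean level of the 5 proliferation markers was 4.78 to 4.88 on fasted and 4.77 to 4.89 on fed arrays. The part of other cell types in the results was not tested. In pooled tissue, fewer cells of a type and less RNA per cell cannot be told apart.

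Of the 52 genes, 1 rose in fasted muscle at an adjusted p of 0.05, and that was Gnl3. None fell, and at an unadjusted p under 0.05 the counts were 7 higher and 0 lower in limma's paired test. The count of 0 depends on the clusters kept. A second Polr1d cluster and 2 clusters shared with another gene, all left out of the 52, were lower (limma unadjusted p of 0.0245, 0.0395 and 0.0433). Over all 16755 clusters, 0.531% were called higher and 0.286% lower at the adjusted threshold, and 5.15% and 5.79% at the unadjusted one. The 52 genes lay mostly just above 0: 40 differences were positive and 12 negative, whereas 45.6% of all clusters were positive. Their median difference was 0.10, with quartiles of 0.01 and 0.20, beside a median of -0.02 and quartiles of -0.12 and 0.09 over all clusters. In 14 of the 52 (26.9%) the fasted pool was the higher in 4 of 4 experiments, and in 1 (1.92%) it was the lower in all 4. The same shares over all clusters were 8.61% and 10.1%.

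Gnl3 encodes nucleostemin, a GTP-binding nucleolar protein of large-subunit assembly (cluster 6823696). Its levels were 8.94, 8.80, 8.38 and 8.51 in the fasted pools of experiments 1 to 4, against 7.76, 7.65, 7.82 and 7.49 in the fed pools. Every fasted pool lay above every fed pool, and the gap was narrowest in experiment 3, at 0.56 against 1.18, 1.14 and 1.03 in the others. The mean was 8.66 ± 0.25 in fasted and 7.68 ± 0.15 in fed muscle (SD, n = 4 each), a 1.97-fold difference (log2 0.98 ± 0.13 SE, 95% interval 0.67 to 1.28, limma adjusted p = 0.025). The difference stayed between 0.91 and 1.12 in 11 alternative fits, and the call held in 7 of them. It ended without experiment 1, 2 or 4 (limma adjusted p of 0.114, 0.118 and 0.101) and when the arrays were set to a common median (0.0695).

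The related GTPase genes differed less. Gnl2, which acts on the large-subunit precursor, was at 7.80, 7.49, 7.47 and 7.59 in fasted pools, against 7.16, 6.98, 7.22 and 7.46 in fed pools. The groups did not overlap, although 7.47 and 7.46 nearly touch, and the difference of 0.39 ± 0.12 did not pass (limma adjusted p = 0.275). Gnl3l, the closest paralog of Gnl3 in this set, differed by 0.11 ± 0.11 with a 95% interval of -0.14 to 0.36. The groups of Gnl3l overlapped, with 6.89 to 7.08 in fasted and 6.75 to 6.99 in fed pools.

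**Figure D1:**
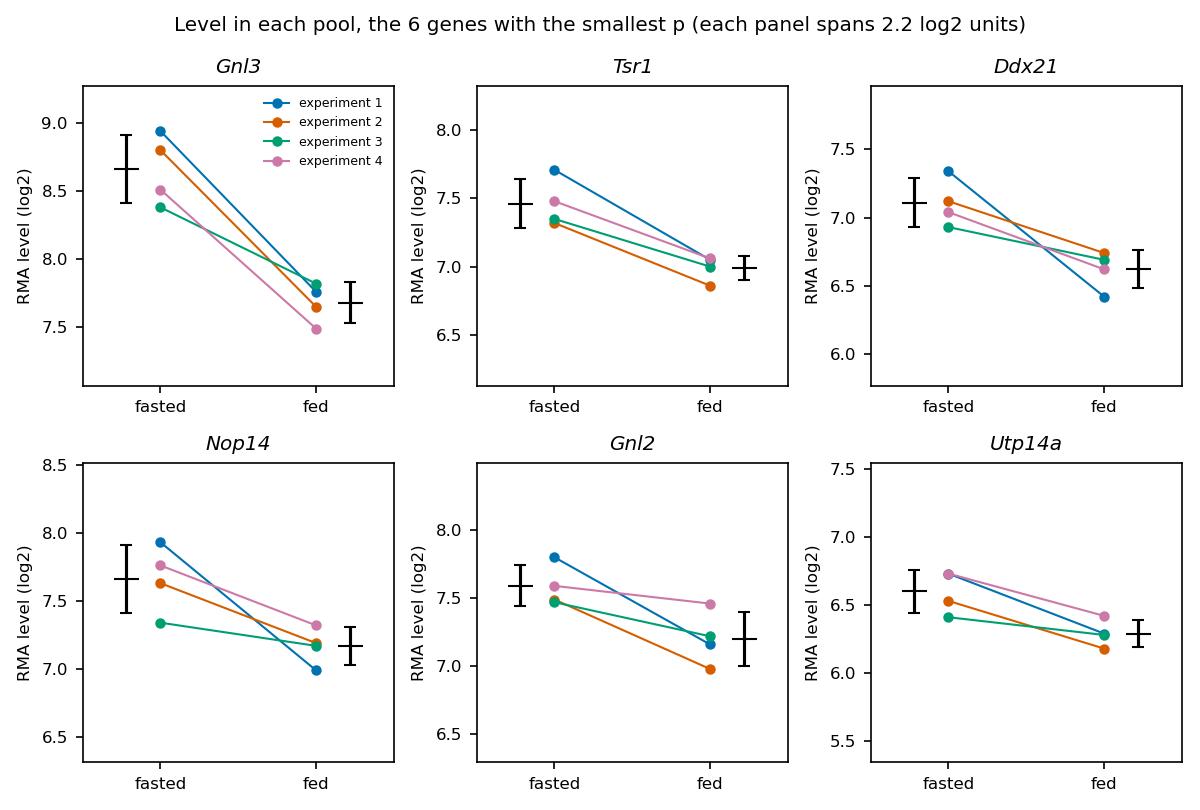
RMA level (log2, vertical axis) of the 6 genes with the smallest p in fasted and fed pools. Lines join the 2 pools of an experiment, and black marks give mean and SD (n = 4). Fasted pools of Gnl3 sit at 8.38 to 8.94, above fed pools at 7.49 to 7.82, and the other 5 genes show smaller gaps, with Utp14a at 6.41 to 6.73 in fasted and 6.18 to 6.42 in fed pools.

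Besides Gnl3 and Gnl2, the fasted pools lay above all fed pools for Tsr1, Nop14 and Ddx21, which makes 5 of the 52 genes (9.62%), against 3.55% of all clusters. None of the 52 lay wholly below, against 3.22% of all clusters. Tsr1, a factor of late small-subunit maturation, was at 7.71, 7.32, 7.35 and 7.48 in fasted pools and at 7.05, 6.86, 7.00 and 7.06 in fed pools. Its 1.39-fold difference, 0.47 ± 0.11, was the second in order of p among these genes and did not pass (limma adjusted p = 0.124, passing in 0 of 11 alternative fits). Nop14, a component of the small-subunit processome (the particle that folds and cuts the early precursor), was at 7.93, 7.63, 7.34 and 7.76 in fasted pools, against 6.99, 7.19, 7.17 and 7.32 in fed pools. The Nop14 groups were separated by only 0.02 at their nearest points, and the 1.41-fold difference, 0.50 ± 0.14, did not pass (limma adjusted p = 0.215).

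Small-subunit assembly was the largest role group, with 19 genes, a median difference of 0.10 and a range from -0.31 to 0.69. In 6 of the 19 (31.6%) the fasted pool was higher in 4 of 4 experiments, and in 1 (5.26%) it was lower in all 4. Over all clusters these shares were 8.61% and 10.1%. None passed, and 4 (21.1%) were higher at an unadjusted p under 0.05 in limma's test (Tsr1, Nop14, Utp14a and Utp11), beside 5.15% of all clusters. Utp11, another processome component, had the largest difference of the group, 0.69 ± 0.28, and the least even one. Its fasted pools were at 8.26, 7.89, 7.04 and 7.98 and its fed pools at 6.79, 6.97, 7.58 and 7.08, so that experiment 3 went the other way, by -0.53. Its limma adjusted p was 0.422 with all 4 experiments, and 0.038 without experiment 3, where the difference was 1.09.

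Of the 19 genes, 14 (73.7%) were above 0 and 5 below, beside 45.6% of all clusters above 0. Utp6 was the gene lower in all 4 experiments, at 6.33, 6.01, 6.09 and 6.15 in fasted pools and 6.33, 6.28, 6.45 and 6.48 in fed pools, with a difference of -0.24 ± 0.11 (limma adjusted p = 0.493). In experiment 1 that gap was -0.01. Rrp7a, also of small-subunit processing, was at -0.31 ± 0.15 (limma adjusted p = 0.525), with its lowest fasted value, 5.59, in experiment 1. Heatr1, the mammalian counterpart of a yeast processome protein that also aids rRNA transcription, was at 0.17 ± 0.11, and Utp14a at 0.31 ± 0.11. Both were higher in 4 of 4 experiments, and neither passed (limma adjusted p of 0.685 and 0.321).

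The 4 Pol I subunit genes of the set differed little in the clusters that stood for them. Levels of Polr1b and Polr1e lay below all array medians (5.76 to 5.91) and may be background. The catalytic subunit genes Polr1a and Polr1b were at 0.14 ± 0.10 and 0.07 ± 0.10, with 95% intervals of -0.10 to 0.38 and -0.16 to 0.31. Polr1a was at 6.92, 6.78, 6.72 and 6.93 in fasted pools and 6.66, 6.58, 6.67 and 6.87 in fed pools, so it was higher within every experiment while the groups overlapped. Polr1b was at 5.49, 5.53, 5.44 and 5.58 in fasted pools and 5.47, 5.45, 5.42 and 5.42 in fed pools, a narrower gap in the same direction (limma adjusted p of 0.74 for Polr1a and 0.917 for Polr1b). Polr1e, a subunit peculiar to Pol I, was at 0.04 ± 0.12, and Polr1d, a subunit shared with Pol III, at -0.08 ± 0.12. A second cluster under the symbol Polr1d, of lower mean level, was at -0.62 ± 0.22 (limma adjusted p = 0.342). It was lower in 3 of 4 experiments, and the clusters thus disagreed in size.

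The small nucleolar ribonucleoproteins guide chemical modification of rRNA, with box C/D particles adding methyl groups and box H/ACA particles converting uridine to pseudouridine. The box C/D core genes Nop56 and Nop58 were at 0.30 ± 0.14 and 0.04 ± 0.15 (limma adjusted p of 0.508 and 0.973). Nop56 was at 7.24, 6.95, 6.89 and 7.23 in fasted pools and 6.60, 7.00, 6.81 and 6.70 in fed pools, with higher values in experiments 1, 3 and 4. A cluster that carries the symbols of both Ei24 and Nop56, left out of the set, was at -0.34 ± 0.14. Nop58 was at 7.24, 6.75, 6.39 and 6.96 in fasted pools and 6.85, 6.72, 6.83 and 6.76 in fed pools, and its fasted pools thus held both its highest and its lowest level. The H/ACA genes Gar1, Nop10 and Nhp2 were at 0.21 ± 0.13, 0.07 ± 0.12 and -0.03 ± 0.11 (limma adjusted p of 0.681, 0.937 and 0.973). Gar1 was at 7.78, 7.96, 7.33 and 7.65 in fasted pools and 7.45, 7.41, 7.39 and 7.64 in fed pools, with its widest gap in experiment 2. Nop10 was at 9.19, 9.12, 8.76 and 9.31 in fasted pools and 8.92, 9.15, 8.94 and 9.07 in fed pools, and was higher in 2 of 4 experiments.

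Large-subunit assembly held 16 genes with a median difference of 0.11, of which 14 were positive, beside 45.6% of all clusters. Of the 16, 4 were higher in all 4 experiments (Gnl3, Gnl2, Rrs1 and Rrp1) and 0 were lower in all 4. Over all clusters these shares were 8.61% and 10.1%. Pes1, Bop1 and Wdr12 form 1 complex needed for large-subunit processing, and their differences were 0.20 ± 0.14, -0.07 ± 0.11 and -0.17 ± 0.22. The groups overlapped for all 3 genes. Nop2, an rRNA methyltransferase, was at 0.22 ± 0.13, and Rrs1, which helps to place the 5S particle in yeast, at 0.10 ± 0.10. Nop53 had the widest error of the 52 genes, 0.23 ± 0.30, with fasted pools at 9.84, 9.83, 8.85 and 9.57 and fed pools at 8.40, 9.50, 9.63 and 9.64.

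Among nucleolar scaffolds, chaperones and helicases, the RNA helicase gene Ddx21, which acts in rRNA transcription and processing, was at 7.34, 7.12, 6.93 and 7.04 in fasted pools, against 6.42, 6.74, 6.69 and 6.62 in fed pools. Its 1.4-fold difference, 0.49 ± 0.13, did not pass (limma adjusted p = 0.2). Ncl, which encodes the abundant nucleolar protein nucleolin, was at 0.15 ± 0.16, Nolc1, a chaperone of small nucleolar particles, at 0.15 ± 0.11, and Mybbp1a, a nucleolar transcriptional regulator, at 0.16 ± 0.10. Nol7 was at 6.69, 6.51, 6.47 and 6.55 in fasted pools and 6.86, 6.48, 6.58 and 7.10 in fed pools, where the fed pool of experiment 4 was the highest (-0.20 ± 0.12, limma adjusted p = 0.666). The 3 genes that share only the family name were near 0 or below: the apoptosis repressor gene Nol3 at 0.03 ± 0.11, Nol4 at -0.07 ± 0.14 and Nol4l at -0.13 ± 0.12. Fasted pools of Nol4l were at 5.38 to 5.64 and fed pools at 5.46 to 5.76, and those of Nol4 at 4.70 to 5.17 and 4.77 to 5.24, so both overlapped (limma adjusted p of 0.841 and 0.951).

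**Figure D2:**
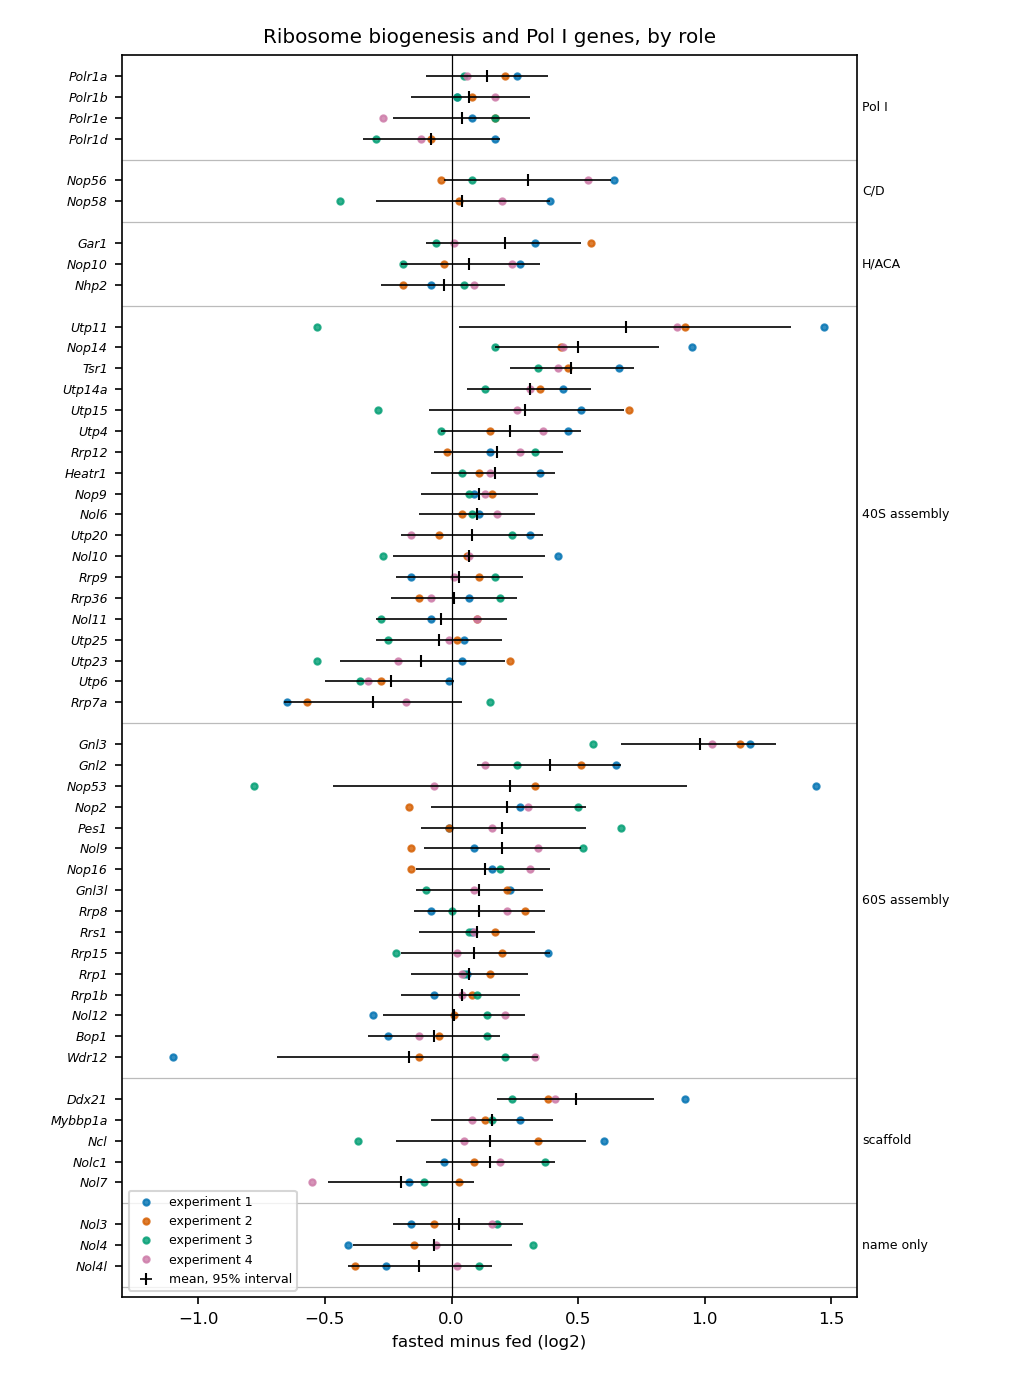
Difference between the fasted and the fed pool (log2, horizontal axis) for each of the 52 genes, grouped by role. Coloured points are the 4 experiments, and black marks are the fitted mean with its 95% interval. The interval lies clear of 0 for 7 genes, all positive, and most of the 52 means fall between 0 and 0.3.

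Precision bounded what could be seen. Standard errors of the 52 genes were 0.10 to 0.30 with a median of 0.12, and the 95% interval stayed within 0.5 of 0 for 34 genes and within 1 of 0 for 50. The 2 others were Gnl3 and Utp11. The median difference of 0.10 was about the standard error of a single gene, which does not describe the spread of a median over 52 genes. Medians of the 52 genes in the separate experiments, given below, had an SD of 0.02. That SD does not allow for the medians over all clusters, which were -0.10, -0.04, 0.08 and -0.00 in experiments 1 to 4. No test was run on the median difference of the 52 genes.

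The position of the 52 genes relative to all clusters differed between experiments. The median difference of the 52 genes was 0.13, 0.09, 0.08 and 0.12 in experiments 1 to 4, beside -0.10, -0.04, 0.08 and -0.00 over all clusters. Positive differences numbered 36, 34, 34 and 40 of 52. In experiments 2 and 4 these were 65.4% and 76.9%, beside 44.2% and 50.0% of all clusters. In experiment 3 both medians were 0.08, so that of the 52 genes did not lie above that of all clusters, and 65.4% of the 52 genes were positive beside 59.2% of all clusters. In experiment 1, 69.2% were positive beside 38.6% of all clusters.

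Across the 52 genes, which are not independent replicates, differences of experiments 1 and 2 correlated with r = 0.723, those of 1 and 4 with 0.504 and those of 2 and 4 with 0.541. Experiment 3 had r = -0.27 with experiment 1, -0.147 with experiment 2 and 0.258 with experiment 4. Without Gnl3 these 3 values were -0.374, -0.318 and 0.163, and the other 3 were 0.693, 0.432 and 0.405. Over all clusters these 6 correlations were between -0.0852 and 0.352. Genes of 1 array share its scale and spread, and the fasted pool of experiment 3 had the narrowest spread. Interquartile ranges were 1.34 in the fasted and 1.48 in the fed pool of experiment 3. In experiment 1 they were 1.59 in the fasted and 1.41 in the fed pool. Whether spread bears on these correlations was not tested. Genes such as Utp11 (-0.53), Utp15 (-0.29), Nop58 (-0.44), Ncl (-0.37) and Nop53 (-0.78) were negative in experiment 3 and positive in experiments 1 and 2. The median difference of the 52 genes was 0.11 without experiment 3 and 0.11 after quantile normalization, which gives all arrays the same spread.

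**Figure D3:**
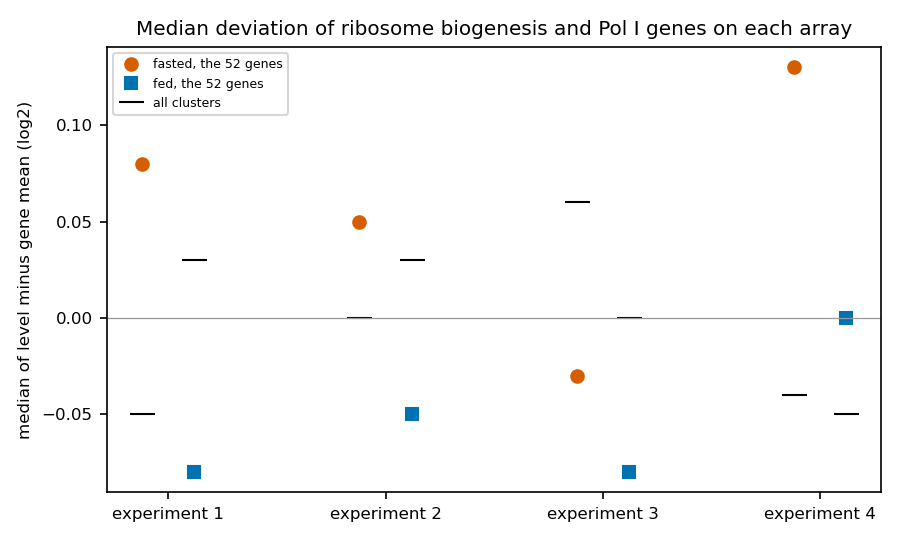
Median over genes of the level minus the gene's mean over all 8 arrays (log2, vertical axis), for the fasted and fed array of each experiment; black dashes give the same over all clusters. The 52 genes lie higher on the fasted array in all 4 experiments (0.08, 0.05, -0.03 and 0.13 in fasted, -0.08, -0.05, -0.08 and 0.00 in fed), and the dash lies above the points of experiment 3.

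Genes of the same and neighbouring pathways, listed with earlier results of these data known, gave 0 of 159 past the adjusted threshold in limma's test, with 13 higher (8.18%) and 9 lower (5.66%) at an unadjusted p under 0.05, beside 5.15% and 5.79% of all clusters. The 77 measured assembly factors outside the 52 had a median difference of 0.11, and 21 of them (27.3%) were higher in all 4 experiments and 6 (7.79%) lower, beside 8.61% and 10.1% of all clusters. Those with the smallest p were Nufip1, which helps to assemble box C/D particles (0.53 ± 0.11, limma adjusted p = 0.0852, passing in 2 of 11 alternative fits), and the helicase gene Ddx56 (0.57 ± 0.12, limma adjusted p = 0.106). Nmd3, the export adaptor of the large subunit, was chosen after its values were seen. It was at 7.97, 7.88, 7.33 and 7.68 in fasted pools and 7.12, 6.98, 7.17 and 7.14 in fed pools (0.61 ± 0.14, limma adjusted p = 0.144).

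Of 8 measured Pol I factors and further subunits, Taf1d, a subunit of the promoter selectivity factor, was at 0.62 ± 0.18 and Ubtf, the upstream binding factor of rRNA genes, at 0.24 ± 0.11 (limma adjusted p of 0.231 and 0.516). Both were higher in 4 of 4 experiments, and the list median was 0.03. The transcription factor gene Myc, a known activator of ribosome biogenesis genes, was at 5.45, 5.71, 5.55 and 5.39 in fasted pools and 5.09, 5.26, 5.27 and 5.23 in fed pools. The groups did not overlap for Myc (0.31 ± 0.11, limma adjusted p = 0.307) or for its partner Max (0.28 ± 0.11, limma adjusted p = 0.412). These were 2 of the 12 genes of the MYC network (16.7%), beside 3.55% of all clusters with fasted pools above all fed pools. The median of the 12 genes was -0.01, and Mycn was at -0.39 ± 0.18 (limma adjusted p = 0.505). All levels of Myc lay below all array medians (5.76 to 5.91) and may be background.

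Of 20 measured cytosolic ribosomal protein genes, which encode components of the ribosome itself, none passed the adjusted threshold in limma's test. At an unadjusted p under 0.05, 0 were higher and 3 (15.0%) lower, beside 5.15% and 5.79% of all clusters. Differences of 5 of the 20 were above 0, beside 45.6% of all clusters, and 4 of the 20 were lower in all 4 experiments, beside 10.1%. Their median was -0.14, with quartiles of -0.21 and 0.00. Rpl35a was at 5.80, 5.94, 5.61 and 5.75 in fasted pools, below its fed pools at 6.09, 6.35, 5.99 and 6.09 (-0.35 ± 0.10, limma adjusted p = 0.209). Rpl31 was at -0.58 ± 0.20 (limma adjusted p = 0.317), with its widest gap, -1.40, in experiment 3. Its levels, 3.21 to 5.03 in fasted and 4.15 to 5.17 in fed pools, lay below all array medians (5.76 to 5.91) and may be background. The 20 include muscle Rpl3l and other paralogs, and ribosomal protein genes have many processed copies whose probes can share signal.

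The other polymerases had medians near 0: -0.07 for 9 Pol II subunits, 0.03 for 10 Pol III subunits and -0.04 for 9 Pol III factors. The lowest p among them belonged to Polr3k, a small Pol III subunit, at 7.62, 7.47, 7.45 and 7.53 in fasted pools, below its fed pools at 7.93, 7.69, 8.04 and 8.06 (-0.41 ± 0.11, limma adjusted p = 0.195). Polr3a, the largest Pol III subunit, was at 0.17 ± 0.11, and Polr2i and Polr2c of Pol II were at -0.25 ± 0.11 and -0.27 ± 0.19. Among Pol III factors, Gtf3c5 was at -0.39 ± 0.12 and Gtf3c4 at 0.29 ± 0.11. The exosome, which trims rRNA precursors, had a median of -0.01 over 14 genes, with Mphosph6 at -0.27 ± 0.11 and Exosc7 at -0.28 ± 0.13.

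**Figure D4:**
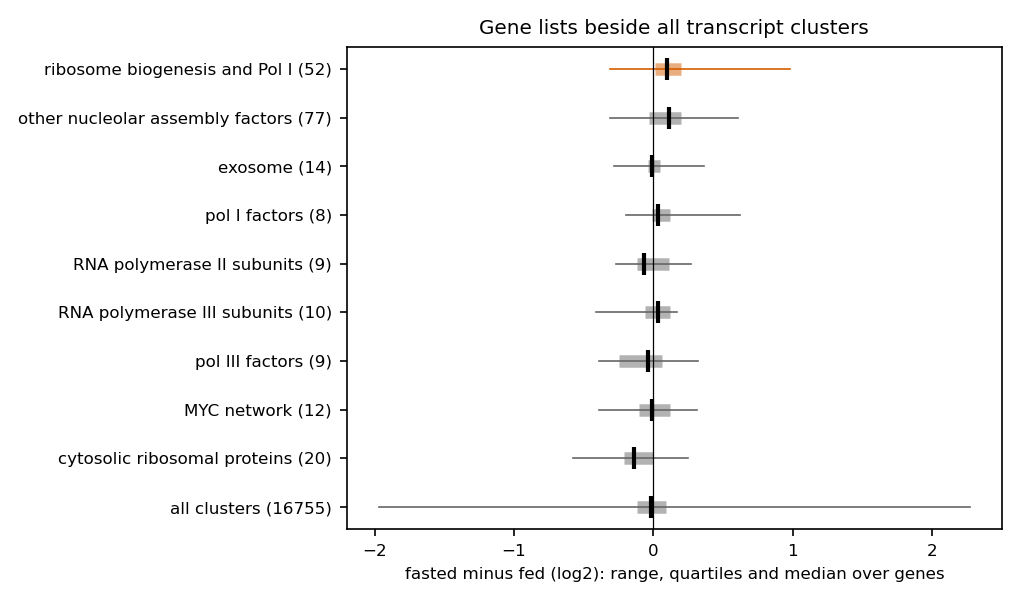
Range (thin line), quartiles (thick bar) and median (black tick) of the fasted minus fed difference (log2, horizontal axis) over the genes of each list, with the number of genes in parentheses. The medians of the 52 genes and of 77 other assembly factors are 0.10 and 0.11, that of ribosomal protein genes is -0.14 and that of all clusters -0.02.

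MYC and its partner MAX are among the proteins that bind the E-box CACGTG, which reads the same on both strands. The promoters of the 52 genes were therefore searched for it. RefSeq promoter windows (GRCm38.p6), which run from 250 bases before to 50 bases after a start, were matched by symbol for 40 of the 52 genes, and 9 of these (22.5%) held the motif. The share was 7.15% of all 32851 windows and 8.09% of 27025 genes with a window, which were not matched to the 40 genes for base composition. The windows are shown with up to 12 flanking bases, 5′ to 3′ on the strand of the gene, because they are where the motif lies in this gene set; capitals mark the motif.
Tsr1 (chr11:74898092-74898121, plus strand): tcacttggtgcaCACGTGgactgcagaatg
Utp4 (chr8:106893643-106893672, plus strand): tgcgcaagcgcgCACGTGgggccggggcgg
Nop2 (chr6:125131811-125131840, plus strand): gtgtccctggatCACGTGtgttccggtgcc
Pes1 (chr11:3963965-3963994, plus strand): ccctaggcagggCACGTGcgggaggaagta
Mybbp1a (chr11:72441355-72441376, plus strand): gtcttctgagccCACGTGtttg
Utp20 (chr10:88826765-88826789, minus strand): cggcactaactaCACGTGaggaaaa
Nol11 (chr11:107189407-107189436, minus strand): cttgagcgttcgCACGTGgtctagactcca
Utp25 (chr1:193130221-193130240, minus strand): agccagcgtgccCACGTGcg
Rrp7a (chr15:83122992-83123021, minus strand): gtgcctgtgcacCACGTGtcctggaactgg
The motif began 25 bases into the transcribed side in Tsr1 and 60 bases before the start in Nop2. Genes are ordered by their fasted minus fed difference, which was 0.47 for Tsr1, 0.23 for Utp4, 0.22 for Nop2, 0.20 for Pes1, 0.16 for Mybbp1a, 0.08 for Utp20, -0.04 for Nol11, -0.05 for Utp25 and -0.31 for Rrp7a. The median was 0.16 for these 9 genes and 0.09 for the 31 without the letters in their window. Gnl3, the gene that rose, had none in its window. A match is a description of the sequence, and binding was not measured.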

How the data were processed

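Gene-level values of 8 mouse exon arrays were analysed, 4 of fasted and 4 of fed muscle. Muscle RNA was turned into SPIA-amplified, biotin-labelled cDNA, per the labels' protocols. The authors deposited log2 values made with RMA, per the submitters' processing notes; base 2 was inferred, as values run from 1.08 to 13.3, and the RMA version is not given in the sources used here. RMA compresses differences at low signal. The notes name the human build hg18 with no role, so no positions are given for clusters. Detection calls were not used here, so a low level may be background.

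Symbols came from the platform annotation: of 16755 clusters, 14996 had 1 symbol, 1019 several and 740 none. A cluster shared by Acsl3 and Utp14b and another shared by Ei24 and Nop56 were left out, because each carried a second gene's symbol. Both were lower in fasted pools in 3 of 4 experiments. Their differences were -0.39 ± 0.16 and -0.34 ± 0.14 (limma adjusted p of 0.412 and 0.431). Close paralogs can share probe signal.

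Groups and experiment numbers came from the sample titles. The fit used limma 3.58.1 (R 4.3.3; lmFit and eBayes, no trend) and kept experiment as a block, because the series design pairs fasted and fed pools in each of 4 experiments, and p-values were corrected over all clusters after Benjamini and Hochberg. As a check of the pairing, deviations of the fasted and fed array of 1 experiment from their groups' averages correlated at -0.176, 0.0549, -0.144 and 0.435. P-values describe the spread of the fasted minus fed differences between experiments, and the number of pools limits the precision. The fit was tested on simulated data, with 50 clusters changed at each size. It recovered 4% of simulated differences of 0.5, 84% of those of 1, 100% of those of 1.5 and 98% of those of 2. Differences near 0.5 were thus rarely detected in the simulation. The 52 genes, the gene lists and the tests were chosen with earlier results of these data known. Genes past the threshold are named, with the 2 genes of smallest p in each role group and list; other members of the 52 are named freely. The short E-box windows lie outside that rule and were added after the values were seen. Alternatives were the fit without the block, a random block, quantile normalization, median centring, a filter on low levels, a trended robust prior, array weights, leaving out each experiment, the mean of a gene's clusters, and the set without genes that share only a name.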

Additional observations from a re-analysis of the deposited data

Results flagged for a closer look

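In 4 of 104 groups of 4 pools (3.85%), 1 pool stood far from the other 3, where chance flags about 1 in 20. Nop53 was at 8.40 in the fed pool of experiment 1, against 9.50 to 9.64 in the other fed pools. Polr1d was at 9.91 in the same pool, against 10.12 to 10.13 in the others. Utp15, a processome component, was at 5.61 in the fasted pool of experiment 3, against 6.14 to 6.24 in the other fasted pools. Nol3, the apoptosis repressor, was at 7.33 in the fasted pool of experiment 4, against 6.85 to 6.92 in the others. None of these 4 genes passed the test.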

How the results depend on the processing

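The median difference of the 52 genes was 0.08 to 0.12 in all refits, 0.10 with the mean of a gene's clusters and 0.11 without Nol3, Nol4 and Nol4l; no gene of the 52 passed as lower in any. Without the experiment block, Gnl3 kept its call (adjusted p = 0.00688) and 185 clusters passed. The number of all clusters past the threshold was 137, against 229 where experiment was a random block, 45 after median centring, 240 without the clusters of lowest level, 265 under array weights and 216 under a trended robust prior. Leaving out 1 experiment gave 16 to 94. The number of the 52 genes called higher was 1, and it was 0 after median centring and 0 to 2 when 1 experiment was left out (Gnl3 and Utp11 without experiment 3, 0 without each of the others). Fewer arrays then enter the fit; the cause of the loss after centring was not tested. Uncalled small differences changed sign: Nop58 was at -0.07 without experiment 1 and -0.01 without experiment 4 (range -0.07 to 0.21), and Nol4 at 0.04 without experiment 1 (range -0.20 to 0.04). The number of pools limits the precision, and low levels may be background.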

Other observations

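Gnl3 lies beside Pbrm1, a chromatin remodelling gene that starts close to it on the opposite strand in RefSeq. Pbrm1 had 2 clusters, and neither passed the test. The first was at 6.70, 6.65, 6.27 and 6.56 in fasted pools and 6.37, 6.39, 6.61 and 6.59 in fed pools (0.06 ± 0.14, limma adjusted p = 0.961). The second was at 7.79, 7.62, 7.27 and 7.54 in fasted pools and 7.39, 7.63, 7.56 and 7.67 in fed pools (-0.00 ± 0.13, limma adjusted p = 0.999). In both clusters the difference was largest in experiment 1 and lowest in experiment 3, as for Gnl3. Other genes of the set, such as Ncl, Nop14 and Utp11, had the same order, so it is not particular to this position. Pbrm1 was chosen for its position after the values of Gnl3 were seen.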
